A study of Mus musculus with 8 samples.

Results

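The small nucleolar RNAs (snoRNAs) U3 and U14, together with Rnu73b, were followed through 8 mouse small RNA libraries. Rows were taken by gene symbol: Rnu3a, Rnu3b1, U3, ACEA_U3, Gm24826, Rnu73b, and Snord14 with a letter. This gave 18 of 5518 annotated rows, of which 13 are U3, 4 are U14 and 1 is Rnu73b. Where overlapping rows had identical counts 1 was kept, which left 15 members. Of these, 8 had a count in any library and 6 had at least 10 counts in a library: Rnu3a, Snord14a, Snord14c, Snord14d, Snord14e and Rnu73b.

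U3 and U14 are C/D box snoRNAs that base-pair with the ribosomal RNA precursor in the nucleolus. U3 is needed for the early cleavages that free 18S ribosomal RNA, and U14 acts in 18S maturation and also guides a ribose methylation of 18S. Most other C/D snoRNAs are excised from introns and guide methylation only, and H/ACA snoRNAs mostly guide pseudouridylation, with U17 among the few that act in 18S processing.

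Mouse embryonic stem (MES) cells of the B6G-2 line, grown without feeders in medium with LIF, gave 2 libraries made by TEsR, a target-enrichment method for small RNAs. TEsR joins linkers to the RNA, removes caps, amplifies, captures by hybridisation and applies no size selection; ribosomal RNA was depleted beforehand, and sequencing was on a MiSeq. Mouse embryonic fibroblasts (MEFs) gave 4 TEsR libraries, here called mmS1, mmS2, pmS1 and pmS2 after their column names, and 2 TruSeq small RNA libraries sequenced on a HiSeq, called ATCACG and CGATGT after their indexes. All MEFs carried a conditional knockout allele of TRF2, a telomere-capping protein, and a Cre recombinase (CreERT2) expressed from Rosa26 that 4-hydroxytamoxifen activates. By their titles 2 of the 4 TEsR MEF samples and both TruSeq samples were induced, with 0.6 µM 4-hydroxytamoxifen for 48 hours, and the other 2 TEsR MEF samples were uninduced. The codes mm and pm do not tell which library was induced, so the 4 were taken as 1 group whose spread includes induction, and no statement on TRF2 loss is made. Genotype and cell type cannot be told apart between MES cells and MEFs, nor can the steps that separate TEsR from TruSeq, and the set of RNAs with capture probes is not stated in the labels. Whether the libraries within a group are separate cultures is not stated in the labels, and the p-values below therefore reflect a spread that may be technical.

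The libraries held 2676776 to 2785150 counts in MES cells, 3221641 to 3768668 in TEsR MEFs and 8442960 to 8961221 in TruSeq MEFs. Between 68.9% and 87.1% of each library lay in 5 rows, none of them a member, that each exceeded 5% of a library. The embryonic stem cell list of 12 miRNA rows summed to 475 and 517 CPM (counts per 1000000 counts of the library) in MES cells, to 0 to 1.33 CPM in TEsR MEFs and to 0 in TruSeq MEFs. The fibroblast list of 12 miRNA rows summed to 4.86 and 7.54 CPM in MES cells, to 114 to 1048 CPM in TEsR MEFs and to 44.3 and 83.7 CPM in TruSeq MEFs. Both labelled cell types thus carried their own markers, and the neural, blood and liver lists were at 0 in all libraries. The muscle list of 4 rows had 0 and 1 counts in MES cells, 1 to 17 counts in TEsR MEFs and 0 in TruSeq MEFs. The part of the fibroblast list's spread in the results below was not tested.

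The symbol Rnu73b resembles that of a U17 gene, Snora73b, but the annotation of its locus goes against taking it for U17. RefSeq (GRCm38.p6) calls the gene at this position Snord73b, with the synonym U73b, a C/D snoRNA of 71 bases in an intron of Rps3a1, a ribosomal protein gene. The U17 snoRNAs are Snora73a and Snora73b, with the RefSeq synonyms U17A and U17B, 205 bases each, within Rcc1 and its neighbour Snhg3. Rnu73b is therefore described here as U73b, and the values of Snora73a and Snora73b are given beside it.

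The sequences of the counted snoRNAs, read from GENCODE vM21 transcripts on mm10 (GRCm38), show the features that set them apart. Capitals mark the box C core TGATGA and the box D CTGA, and in Snora73a the ACA box.
Rnu3a, chr10:40258467-40258680 (+): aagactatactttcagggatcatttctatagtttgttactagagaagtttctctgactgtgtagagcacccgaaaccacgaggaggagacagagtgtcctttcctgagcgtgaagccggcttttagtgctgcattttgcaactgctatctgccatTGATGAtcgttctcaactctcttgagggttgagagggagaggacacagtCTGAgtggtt
Rnu73b, chr3:86140618-86140688 (-): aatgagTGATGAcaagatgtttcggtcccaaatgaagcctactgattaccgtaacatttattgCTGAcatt
Snord73a, chr3:86138791-86138858 (-): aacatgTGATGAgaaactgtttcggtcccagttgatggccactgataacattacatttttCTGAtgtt
Snora73a, chr4:132352775-132352979 (-): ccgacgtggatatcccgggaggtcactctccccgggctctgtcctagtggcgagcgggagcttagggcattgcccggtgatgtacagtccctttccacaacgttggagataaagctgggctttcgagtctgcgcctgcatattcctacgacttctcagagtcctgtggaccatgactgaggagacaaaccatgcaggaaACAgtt
Rnu73b and Snord73a, which lie in the same host gene, were identical at 73.2% of aligned positions. Rnu73b and Snora73a, at 71 and 205 bases, differ too much in length for such a percentage to be read. In Snora73a the ACA stands 3 bases before the 3′ end, as in H/ACA snoRNAs. TGATGA on the RNA strand was held by 41.1% of the 302 snoRNA rows with a count and a sequence.

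The 4 U14 genes are shown with another feature in capitals. These are stretches of at least 11 bases exactly complementary to the plus strand of the mm10 18S ribosomal RNA copy on chromosome 17 (Rn18s-rs5).
Snord14a, chr7:116333171-116333257 (-): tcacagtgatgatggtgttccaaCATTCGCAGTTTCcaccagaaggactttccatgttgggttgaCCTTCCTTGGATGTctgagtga
Snord14c, chr9:40803583-40803668 (+): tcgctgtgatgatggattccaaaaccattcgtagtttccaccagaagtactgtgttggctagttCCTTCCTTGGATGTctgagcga
Snord14d, chr9:40803995-40804080 (+): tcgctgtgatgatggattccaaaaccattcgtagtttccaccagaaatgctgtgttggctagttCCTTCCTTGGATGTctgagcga
Snord14e, chr9:40804748-40804837 (+): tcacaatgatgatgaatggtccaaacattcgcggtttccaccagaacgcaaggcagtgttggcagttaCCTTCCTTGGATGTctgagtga
All 4 copies shared the same 14-base stretch next to box D, facing chr17:39846817-39846830, and Snord14a had a further one of 13 bases facing chr17:39846434-39846446. At that place the other copies hold a similar stretch, interrupted for exact pairing, that is not marked. A complement of at least 14 bases to this 18S row was found in 3.64% of the 302 snoRNA rows, and the median longest complement was 8.5 bases. Snord14a lies in Rps13, a ribosomal protein gene, and Snord14c, Snord14d and Snord14e lie in Hspa8, which encodes a heat shock cognate protein. Each of the 4 overlaps an exon of at least 1 annotated transcript of its host. Snord14c and Snord14d differ by the substitutions G47A and A49G alone, with positions counted from the 5′ end of Snord14c, so how reads were divided between these copies is uncertain. The other pairs of U14 genes were identical at 78.0% to 82.6% of aligned positions.

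Nearly all U3 counts were at Rnu3a, which held 27022 of 27028 by TruSeq and all of them by TEsR. Rnu3a, which has no annotated host gene, had 31 and 16 counts in MES replicates 1 and 2, and 2, 1, 1 and 2 counts in MEF libraries mmS1, mmS2, pmS1 and pmS2. By TruSeq it had 3600 counts in ATCACG and 23422 in CGATGT. The row U3 on chromosome 10 overlaps Rnu3a and repeated its counts. Gm24826 on chromosome 1, repeated by an overlapping ACEA_U3 row, had 3 and 1 counts in TruSeq and 0 in all 6 TEsR libraries. Rnu3b1, in an intron of Tex14, had 2 counts in CGATGT and 0 elsewhere. A U3 row that covers all but the last base of Rnu3b1 had 0 counts in CGATGT. Where the 2 reads lie was not examined, so they are not taken as a measure of Rnu3b1. The remaining U3 and ACEA_U3 rows were at 0 in all 8 libraries. There 0 counts allow up to 0.335 to 1.12 CPM, provided that reads could be assigned to these rows. Rnu3b1, Rnu3b2, Rnu3b3 and Rnu3b4 are identical at 216 of 216 bases, and Rnu3b1 and Rnu3a at 85.2% of aligned positions. Counts of single copies of the Rnu3b group, and of the group as a whole, are therefore uncertain. How reads matching several places were handled is not given. The 0 counts and their limits thus do not show that the Rnu3b group is absent.

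Against MEFs, MES cells had more Rnu3a. It averaged 8.55 ± 3.64 CPM in MES cells (SD, n = 2) and 0.426 ± 0.179 CPM in TEsR MEFs (SD, n = 4), and the groups did not overlap. Pooled over libraries the level was 20.4-fold higher in MES cells, with an exact 95% interval of 8.72 to 58.5 that covers counting error only, since it rests on 47 counts in MES cells and 6 in MEFs. In edgeR's quasi-likelihood test the log2 fold change was 4.98 ± 0.72 (SE) with an adjusted p of 0.000115. It was 4.35 without MES replicate 1, the library with the higher level.

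The U14 genes were higher in MES cells too, where their mean levels were close, at 51.5 to 63.0 CPM. Their order of change was the reverse of their order of level in TEsR MEFs, which rests on few counts. Snord14a had 161 and 157 counts in MES cells, and 1, 1, 0 and 1 in MEF libraries mmS1, mmS2, pmS1 and pmS2. Snord14c had 156 and 126 counts in MES cells, and 3, 2, 0 and 1 in the MEF libraries in the same order. Snord14d had 195 and 150 counts in MES cells, and 17, 2, 4 and 0 in MEFs. Thus MEF library mmS1 held most of the Snord14d counts of that group. Snord14e had 151 and 157 counts in MES cells, and 27, 18, 4 and 11 in MEFs, where its 60 counts were the largest sum of the 4 genes. In CPM each U14 gene was higher in both MES libraries than in every TEsR MEF library. How many of all rows do so was not counted, so this is a description only.

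In edgeR's quasi-likelihood test Snord14a had a log2 fold change of 8.63 ± 0.60 (SE, adjusted p = 1.74e-06). For Snord14c it was 7.58 ± 0.65 (edgeR adjusted p = 4.09e-06). Snord14d stood at 6.10 ± 0.82 (edgeR adjusted p = 6.65e-05), and at 7.30 without MEF library mmS1. The smallest was that of Snord14e, 4.48 ± 0.61 (edgeR adjusted p = 7.49e-05). Because few MEF counts underlie the first pair, the pooled ratio was 277 with a counting interval of 93.8 to 1349 for Snord14a, and 123 with an interval of 55.7 to 337 for Snord14c. Summed over the 4 copies, U14 had 229 ± 12.5 CPM in MES cells (SD, n = 2) and 6.32 ± 4.64 CPM in TEsR MEFs (SD, n = 4). The log2 ratio of these means was 5.18, and 5.79 without MEF library mmS1, which held 48 of the 92 MEF counts.

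Rnu73b ran the other way. It had 1032 and 868 counts in MES cells, and 11334, 9999, 10289 and 9737 in MEF libraries mmS1, mmS2, pmS1 and pmS2. This came to 347 ± 32.7 CPM in MES cells (SD, n = 2) and 2906 ± 178 CPM in TEsR MEFs (SD, n = 4), with every MEF library above both MES libraries. The log2 fold change was -2.30 ± 0.37 (SE) in edgeR's quasi-likelihood test, with an adjusted p of 0.000229.

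**Figure D1:**
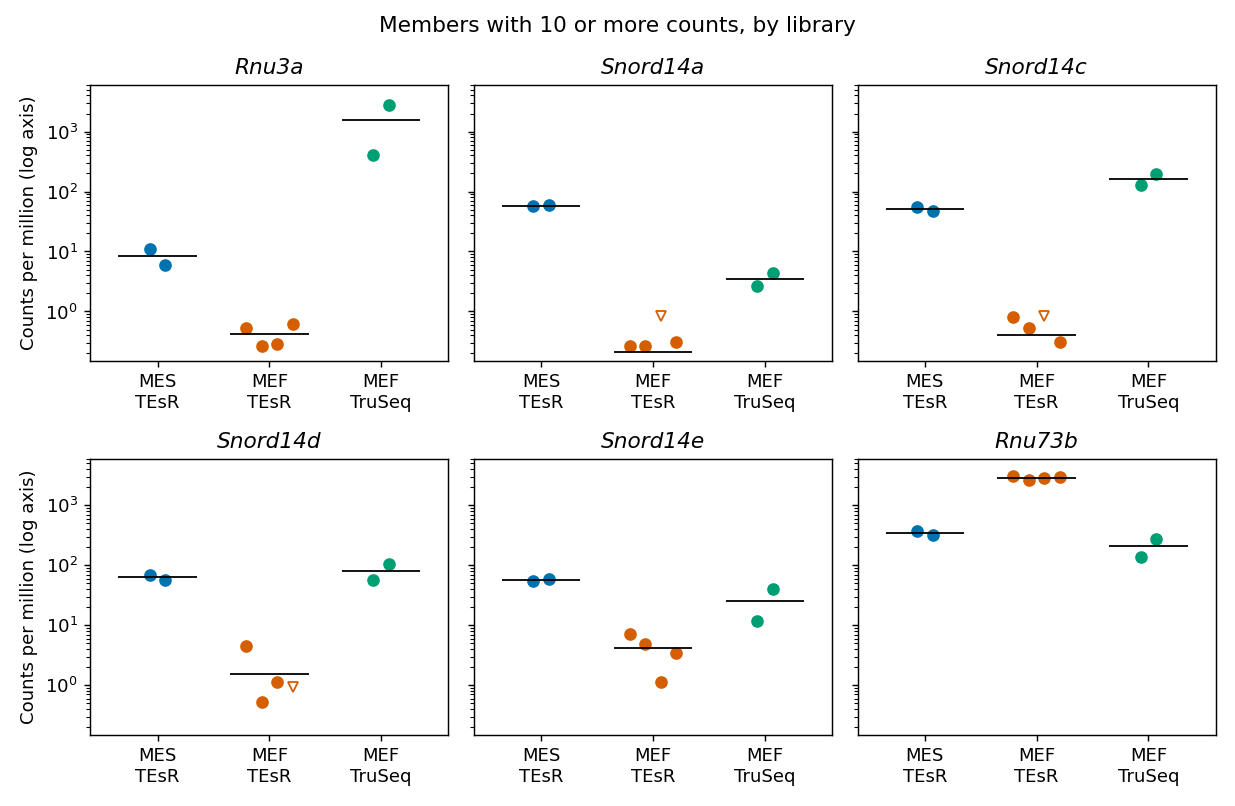
CPM on a log axis for the 6 members with 10 or more counts, in MES TEsR (blue, 2 libraries), MEF TEsR (orange, 4) and MEF TruSeq (green, 2). Points are libraries, lines are group means, and open triangles mark libraries at 0, drawn at the level that 3 counts would give. Rnu73b is highest in MEF TEsR at 2653 to 3039 CPM, where the other 5 are lowest.

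These changes stand among many. Of 273 rows tested between MES cells and TEsR MEFs, 43.6% were called higher and 31.5% lower in MES cells at an adjusted p under 0.05, and the median log2 fold change was 0.45. All 6 members with 10 or more counts were tested. Rnu3a, Snord14a, Snord14c and Snord14d passed the filter on low counts through MES cells alone. Neither their adjusted p nor the number of members called is therefore read as support. With scaling by library size only the median of all rows was -0.38, and the directions given for the 6 members held under both scalings. Relative to the median of all rows, Rnu3a stood 4.53 higher on the log2 scale, Snord14a 8.17 higher, and Rnu73b at -2.75. Among snoRNA rows named Snord, 43 of 70 were called higher and 10 lower, with a median of 2.58. Among those named Snora, 5 of 6 were called higher and 0 lower, with a median of 6.99, and 1 of the 6 had 10 or more counts in at least 2 MEF libraries. In bulk samples, fewer cells of a type and less RNA per cell cannot be told apart.

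Other RNAs of the ribosomal RNA processing pathway were read from a list of 8. Snord3a and Rmrp are not analysed here, and the U17 pair had too few TEsR counts for the test. Of the 4 that were tested between MES cells and TEsR MEFs, 3 were called higher and 0 lower in MES cells, but Snord13 and Snord22 passed the filter through MES cells alone, so this tally is not read as support. Snord118 (U8), which acts in 5.8S and 28S maturation, had 126 and 109 counts in MES cells, and 23, 19, 22 and 16 in MEF libraries mmS1, mmS2, pmS1 and pmS2. Its log2 fold change was 3.72 ± 0.38 (edgeR adjusted p = 1.11e-05). Snord13 (U13), which acts in 18S maturation, had 59 and 73 counts in MES cells and 0 to 1 in MEFs, with a pooled ratio of 172 and a counting interval of 46.8 to 1437. Snord22 (U22), which acts in 18S processing in frog oocytes, had 42 and 35 counts in MES cells and 0 to 2 in MEFs, with a pooled ratio of 67.0 and an interval of 22.1 to 332. Its fitted log2 fold change was 6.58, and 7.57 without MEF library pmS2. Snord17 had 22 and 31 counts in MES cells and 29 to 139 in MEFs, with a log2 fold change of -0.72 ± 0.59 that was not called (edgeR adjusted p = 0.286). Snora73a had 1 and 3 counts in MES cells and 0 to 2 in TEsR MEFs, and Snora73b had 2 and 2 in MES cells and 0 to 1 in TEsR MEFs. The counting interval of the MES to MEF ratio ran from 0.748 to 57.7 for Snora73a and from 1.03 to 514 for Snora73b. Summed, U17 had 1.08 and 1.87 CPM in MES cells and 0 to 0.621 CPM in TEsR MEFs. This rests on 8 counts in MES cells and 3 in MEFs. The limit for 0 counts is 0.796 to 1.12 CPM in these libraries, so no difference is read from these sums.

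Within MEFs, TEsR gave far less Rnu3a, Snord14c and Snord14d than TruSeq, and more Rnu73b. The same 4 TEsR MEF libraries stand in this comparison and in that with MES cells, so the comparisons are not independent. By their titles the TruSeq samples were all induced, while the TEsR MEFs were mixed. Column names of the TEsR counts hold an unexplained tag q10 that the TruSeq names lack. The 2 tables may therefore have been counted differently. Neither point can be told apart from the library method. Rnu3a averaged 0.426 ± 0.179 CPM by TEsR (SD, n = 4) and 1588 ± 1678 CPM by TruSeq (SD, n = 2). The TruSeq pair was wide apart, 402 CPM in ATCACG and 2774 CPM in CGATGT, a 6.91-fold difference. Of 221 rows with 100 or more counts in either TruSeq library and a count in both, 0 had a larger ratio of CGATGT to ATCACG than Rnu3a, and 2 had a ratio at least as far from 1 in the other direction. Both TruSeq libraries were nonetheless above all TEsR MEF libraries. The log2 fold change was -11.09 ± 0.80 (edgeR adjusted p = 5.45e-08), and -9.51 without CGATGT.

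Snord14c had 3, 2, 0 and 1 counts by TEsR, and 1152 and 1662 by TruSeq in ATCACG and CGATGT. Its log2 fold change was -7.88 ± 0.73 (edgeR adjusted p = 5.20e-07), and the pooled TruSeq to TEsR ratio was 384 with a counting interval of 176 to 1048. Snord14d had 0 to 17 counts by TEsR, and 512 and 891 by TruSeq. The log2 fold change was -5.07 ± 0.88 (edgeR adjusted p = 0.000153), and -6.43 without MEF library mmS1. These are the near-identical copies, and in both every TruSeq library was above every TEsR MEF library. Both passed the filter on low counts through TruSeq alone, and how many of all rows separate in this way was not counted. This and every other separation of groups given here is therefore a description only.

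Snord14a and Snord14e moved less. Snord14a had 0 to 1 counts by TEsR, and 24 and 37 by TruSeq, with a log2 fold change of -3.29 ± 0.81 (edgeR adjusted p = 0.00183). It was not called without ATCACG (-3.19) or by DESeq2 (-2.74, adjusted p = 0.0696). Snord14a did not pass the filter without CGATGT, without MEF library mmS2, or with the rows over 5% of a library left out. Snord14e had 4 to 27 counts by TEsR, and 104 and 335 by TruSeq. The log2 fold change of -1.85 ± 0.74 (edgeR adjusted p = 0.0307) was not called without ATCACG (-2.16, edgeR adjusted p = 0.0562), without CGATGT (-1.07, edgeR adjusted p = 0.403) or by DESeq2 (-1.25, adjusted p = 0.194).

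Rnu73b had 9737 to 11334 counts in the 4 TEsR MEF libraries, against 1233 and 2315 in the larger TruSeq libraries ATCACG and CGATGT. It averaged 2906 ± 178 CPM by TEsR (SD, n = 4) and 206 ± 96.6 CPM by TruSeq (SD, n = 2), without overlap. The log2 fold change was 4.51 ± 0.49 (edgeR adjusted p = 2.01e-06).

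**Figure D2:**
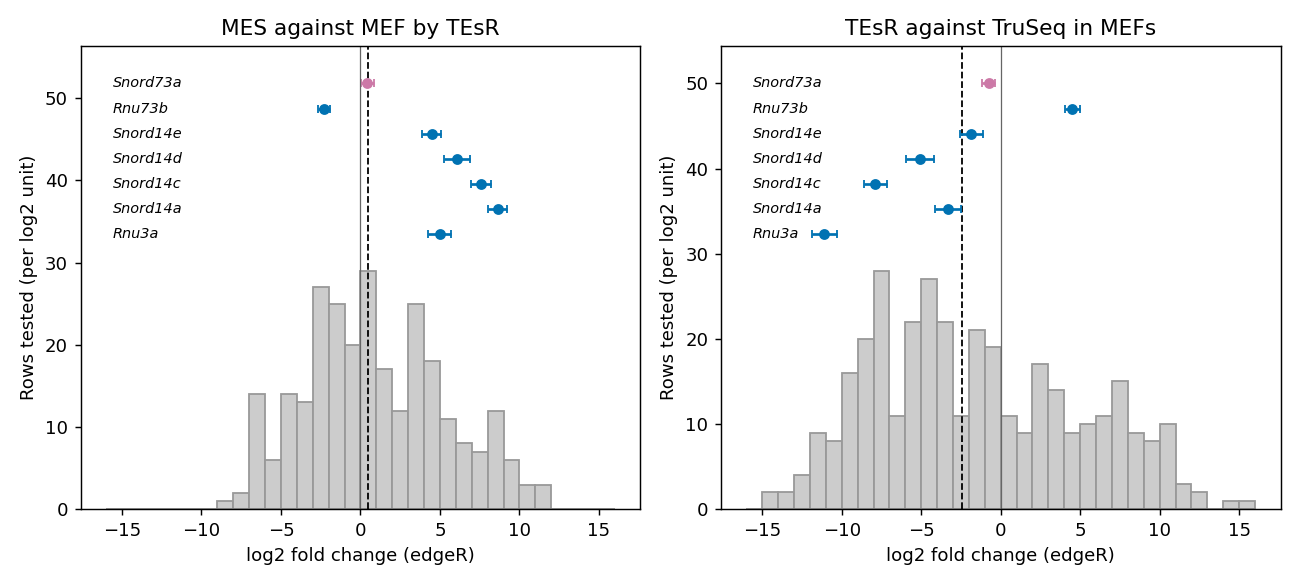
Distribution of edgeR log2 fold changes over all rows tested (grey bars; 273 rows left, 352 right; dashed line, their median) with the 6 members (blue) and Snord73a (pink) drawn above as points with SE. Left, positive values are higher in MES cells than in MEFs; right, positive values are higher by TEsR than by TruSeq. Rnu73b at -2.30 and 4.51 lies on the opposite side of 0 from the other members in both panels, which share the 4 MEF TEsR libraries.

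Of 352 rows tested between the methods, 32.4% were called higher and 55.7% lower by TEsR. Here the same 4 members passed the filter through TruSeq alone. Neither their adjusted p nor their number is read as support. The median log2 fold change was -2.42, and it was -1.78 with DESeq2 size factors and -3.02 by library size only. Against this median Rnu3a stood at -8.67 and Rnu73b at 6.93, while Snord14a stood at -0.87 and Snord14e at 0.57. Of the snoRNA rows named Snord, 10 of 77 were called higher and 54 lower by TEsR, with a median of -3.29; of those named Snora, 0 of 28 were called higher and 24 lower, with a median of -6.74, and 1 of the 28 had 10 or more counts in at least 2 TEsR libraries. All 6 listed processing snoRNAs outside the rule were tested, with 0 called higher and 5 lower by TEsR, but only 2 of the 6 had 10 or more counts in at least 2 TEsR libraries, so this tally is not read as support. Snora73a had 0, 0, 0 and 2 counts by TEsR and 288 and 474 by TruSeq, a pooled TruSeq to TEsR ratio of 312 with a counting interval of 86.1 to 2582. Its fitted log2 fold change was -7.44, and -10.71 without MEF library pmS2, which held both TEsR counts. Snora73b had a total of 1 count over the 4 TEsR libraries, in pmS1, and 190 and 129 by TruSeq. Snord118 had 16 to 23 counts by TEsR and 2917 and 7543 by TruSeq, with a log2 fold change of -6.07 ± 0.49 (edgeR adjusted p = 1.56e-07). Snord17 was the exception at 0.26 ± 0.61 (edgeR adjusted p = 0.695).

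Log2 fold changes differed between classes of annotated length in both comparisons, but not steadily between MES cells and TEsR MEFs. Of the snoRNA rows tested between the methods, 107 of 128 under 100 bases had 10 or more counts in at least 2 TEsR MEF libraries, and 127 did so in both TruSeq libraries. Among those of 100 to under 200 bases it was 8 of 76 by TEsR and 76 by TruSeq, and among those of 200 bases or more 1 of 8 by TEsR and 8 by TruSeq. The longer rows thus entered the test mostly through TruSeq, where they are high, so their calls and their median log2 fold changes of -7.15 and -7.30, against -2.71 under 100 bases, are a description only. Between MES cells and TEsR MEFs the median was 1.67 for 118 rows under 100 bases and 5.99 for 26 rows of 100 to under 200 bases. Of these 26, 24 had 10 or more counts in both MES libraries and 8 in at least 2 MEF libraries, so the same limit applies. For the 2 rows of 200 bases or more, Rnu3a and Snord17, the median was 2.13. Rnu3a at 214 bases and the U17 pair at 205 bases are in the longest class, while Rnu73b, at 71 bases, and the U14 genes, at 86 to 90 bases, are in the shortest. The part of length in the members' values was not tested.

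**Figure D3:**
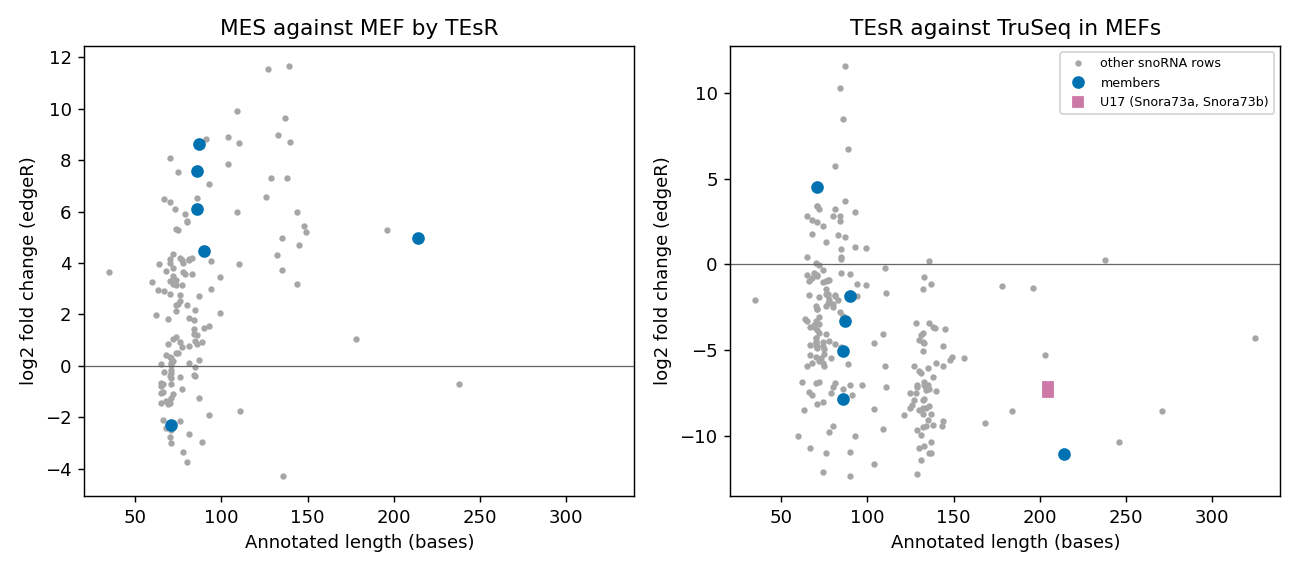
Annotated length in bases against the edgeR log2 fold change for all snoRNA rows tested (grey), the members (blue) and the U17 pair (pink squares, right panel). Left, MES against MEF by TEsR; right, TEsR against TruSeq in MEFs. In the right panel Rnu3a lies at -11.09 among rows of 100 bases or more, most of which passed the filter through TruSeq.

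The mix of U14 copies differed between the 3 sets of libraries. In MES cells the copies contributed nearly evenly: Snord14a 25.4% ± 1.65, Snord14c 22.4% ± 1.54, Snord14d 27.4% ± 2.82 and Snord14e 24.7% ± 2.71 of U14 counts (mean and SD, n = 2). In TEsR MEFs, Snord14e made up 67.3% ± 16.7 (SD, n = 4), but on 48, 23, 8 and 13 counts in mmS1, mmS2, pmS1 and pmS2, so that single shares are loose. In pmS1, for example, Snord14e had 50.0% with an exact 95% interval of 15.7% to 84.3%. By TruSeq the leading copy was Snord14c, with 60.6% ± 5.28, ahead of Snord14d with 29.5% ± 1.34 and Snord14e with 8.63% ± 3.99, and Snord14a was at 1.30% ± 0.0526 (SD, n = 2). The ratio of Snord14c to Snord14a was 0.969 and 0.803 in MES replicates 1 and 2, against 48.0 in ATCACG and 44.9 in CGATGT. MES cells by TEsR and MEFs by TruSeq differ in both cell and method, so these are given side by side without a test.

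**Figure D4:**
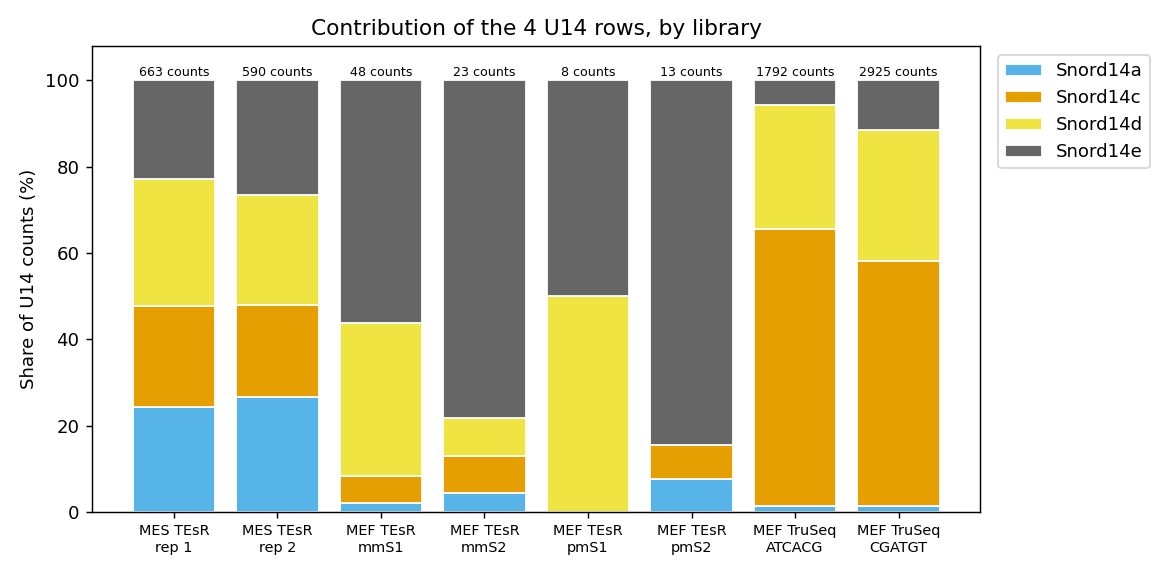
Share of all U14 counts (percent) taken by each of the 4 U14 genes in each library, with the number of U14 counts above each bar. The 4 copies are near even in MES cells, Snord14e leads in TEsR MEFs on 8 to 48 counts, and Snord14c leads in TruSeq with 64.3% and 56.8%.

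Rnu73b can be set against Snord73a, which is also annotated in an intron of Rps3a1. Snord73a had 2619 and 2307 counts in MES cells, and 3787, 2441, 9152 and 2389 in MEF libraries mmS1, mmS2, pmS1 and pmS2. By TruSeq it had 23519 and 28205 counts in ATCACG and CGATGT. Snord73a was not called between MES cells and TEsR MEFs, with a log2 fold change of 0.44 ± 0.43 (edgeR adjusted p = 0.358) that was -0.47 when scaled by library size only. It was not called between the methods either, at -0.76 ± 0.41 (edgeR adjusted p = 0.0977), and was called there when scaled by library size only (-1.26, edgeR adjusted p = 0.0379). Without MEF library pmS1, which has the highest level of its group, it was called in both comparisons, at 0.83 (edgeR adjusted p = 0.0302) and -1.24 (edgeR adjusted p = 0.00505).

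The ratio of Rnu73b to Snord73a was 0.394 and 0.376 in MES replicates 1 and 2, and 2.99, 4.10, 1.12 and 4.08 in mmS1, mmS2, pmS1 and pmS2. In TruSeq it was 0.0524 in ATCACG and 0.0821 in CGATGT. The TEsR MEF libraries were above all others, with pmS1 the lowest of them. The exact two-sided permutation p of the log2 ratio was 0.133 for MES cells against TEsR MEFs and 0.133 for TEsR against TruSeq in MEFs. This test takes 2 times the smaller one-sided p, so 0.133 is the least it can give for 2 libraries against 4.

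**Figure D5:**
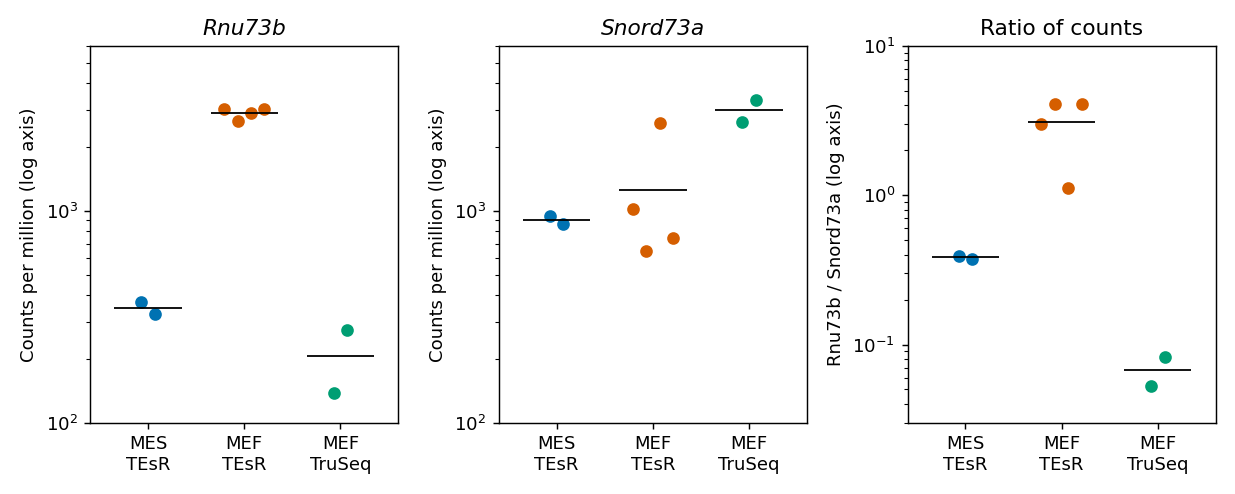
CPM of Rnu73b and Snord73a and the ratio of their counts, all on log axes, for MES TEsR (blue), MEF TEsR (orange) and MEF TruSeq (green); lines are group means. The ratio is 0.376 and 0.394 in MES cells, 1.12 to 4.10 in MEF TEsR, and 0.0524 and 0.0821 in TruSeq.

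Per 100 bases of annotated length the order of the members changed with the method. In MES cells the mean level was 489 ± 46.1 CPM per 100 bases for Rnu73b, 59.9 to 73.3 for the 4 U14 genes, and 4.00 ± 1.70 for Rnu3a (SD, n = 2). Among the U14 genes the ranges of Snord14d and Snord14a overlapped, as did those of Snord14e and Snord14c. In TEsR MEFs Rnu73b stood at 4093 ± 251 CPM per 100 bases and Snord14e next at 4.60 ± 2.84 (SD, n = 4). Snord14d followed at 1.81 ± 2.39, Snord14c at 0.478 ± 0.396, Snord14a at 0.243 ± 0.163 and Rnu3a at 0.199 ± 0.0838, each with a range that overlapped that of its neighbour. By TruSeq the order was Rnu3a at 742 ± 784, Rnu73b at 290 ± 136, Snord14c at 189 ± 56.2, Snord14d at 94.6 ± 39.8, Snord14e at 28.5 ± 22.1 and Snord14a at 4.06 ± 1.39 CPM per 100 bases (SD, n = 2). There the ranges of the first 3 overlapped, while Snord14a was below all others in both libraries.

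The rows with the most similar profiles were sought among rows averaging 10 CPM or more, as the root mean square distance between centred log2(CPM + 1) values over the 8 libraries. For Rnu3a the nearest of 234 rows were Gm25744 (distance 0.82), Snord60 (0.90) and Gm23212 (0.95), against a median of 3.32, all snoRNA rows. For Snord14c, the U14 row with the highest mean CPM over the 8 libraries through its TruSeq level, they were Snord13 (0.42), Gm23187 (0.66) and Gm26247 (0.71), again all snoRNA rows. For Rnu73b they were the snoRNA row Snord87 (0.49) and the miRNA rows Mir350 (0.60) and Mir151 (0.63). Snord87 had 1187 CPM in MES cells, 4774 CPM in TEsR MEFs and 595 CPM in TruSeq MEFs on average. For Snora73a of U17 the nearest of 233 rows were Snora28 (0.34), Snora31 (0.42) and AF357399 (0.42).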

How the data were processed

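The deposited values are raw counts per annotated small RNA, made by the authors with no normalization, in 2 tables (TEsR and TruSeq) over identical rows. The tools named in the submitters' processing notes are BWA 0.7.12, bedtools 2.25.0, SAMtools 1.2.1 and cutadapt, with mm10; the handling of strand and of reads matching several places is not given in the sources used here. TEsR column names hold a tag q10 that is not explained and that TruSeq column names lack. The TruSeq table is named a control while its titles say induced, and groups follow the titles.

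Counts were tested with edgeR 4.0.16 (quasi-likelihood, robust, TMM scaling, filterByExpr with a minimum of 10 counts) over the libraries of each comparison, with Benjamini-Hochberg adjustment over all rows and a threshold of 0.05. The SE is the absolute log2 fold change divided by the square root of F. CPM are relative to all counts of a library. Pooled ratios carry exact 95% counting intervals, and 3 counts are the limit for a count of 0. Reads carried no molecular identifiers, so intervals cover counting error only. Alternatives were DESeq2 1.42.0, library size only, no filter, overlapping rows once, families summed, rows over 5% of a library left out, and each library left out. No 2 libraries of a group had counts within sampling noise of each other, so none were merged; this does not show that they are separate cultures.

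The members and lists were chosen with earlier results of these data known. Members with 10 or more counts in a library were named, then the listed processing snoRNAs and the 3 rows nearest in profile to the most abundant row of each family; this last step was run for Rnu73b and Snora73a both, because the rule had named U17.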

Additional observations from a re-analysis of the deposited data

Results flagged for a closer look

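In 21 sets of 4 MEF TEsR values searched for a library far from the other 3, 3 were marked. Chance marks about 1 in 20 sets of continuous values, a rate that does not hold for counts with tied values such as these. Snord14a had 0.0 CPM in pmS1 and a single count in each of the other 3 libraries. Snora73a had 0.621 CPM in pmS2, from 2 counts, and 0 in the other 3. Snora73b had 0.283 CPM in pmS1, from 1 count, and 0 in the other 3. Each rests on 0 to 2 counts.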

How the results depend on the processing

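The counts of rows called kept within 1.5 times of 205 between MES cells and TEsR MEFs (162 to 254) and of 310 between TEsR and TruSeq (292 to 412) under every alternative run. The log2 ratio of mean CPM of Rnu73b between TEsR and TruSeq, 3.82, was 4.72 without the rows over 5% of a library. These rows take a larger share of the TEsR MEF libraries than of the TruSeq libraries. Without them the U3 sum went from -11.86 to -10.92 and the U14 sum from -5.43 to -4.50. The family sums of U3 and U14 moved by less than their spread, which is larger than that of Rnu73b. Among 131 alternative fits of single members none reversed, and 5 lost a call, all for Snord14a or Snord14e between TEsR and TruSeq. The 131 do not hold the alternatives between TEsR and TruSeq in which Snord14a did not pass the filter. With single libraries left out, log2 fold changes between MES cells and MEFs ran from 4.35 to 5.32 for Rnu3a. No paired analysis was possible because the MEF TEsR columns carry codes that do not give the sample number of the titles, and the TruSeq columns carry an index only. Depth limits U17 and the U14 copies in TEsR MEFs, where 3 counts correspond to 0.796 to 0.931 CPM.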
